A study of Mus musculus with 10 samples.

Results

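The genes of cholesterol synthesis and its control were examined in the hippocampus of Dp1Tyb and wild-type (WT) mice. The 28 genes were chosen by name, as sterol synthesis, uptake and regulator genes, and their symbols were matched to the Ensembl gene IDs of the count table. They are 28 of its 43629 genes, and all 28 passed the filter on low counts that left 17237 genes for testing. RNA sequencing was carried out on the whole hippocampus, with 1 library per mouse and 5 mice per genotype. Dp1Tyb mice carry the duplication Dp(16Lipi-Zbtb21)1TybEmcf, which gives them a further copy of the stretch of chromosome 16 that matches human chromosome 21, and are a model of Down syndrome. None of the 28 genes lies in the duplicated segment: 0 of 28. The WT mice lack the duplication, and both groups share in the labels a strain of C57BL/6J background with 129P2 as donor and an age of 18 weeks. The methods of the study describe them as male littermates, backcrossed to C57BL/6JNimr for many generations. Every cell type of the hippocampus contributed to each library, so a change in the number of cells of a type and a change of RNA per cell cannot be told apart.

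Cells make cholesterol from acetyl-CoA. A set of enzymes makes mevalonate and joins isoprenoid units into farnesyl diphosphate, and a further set turns this into squalene, closes the sterol rings and trims them to cholesterol. Brain cholesterol is made within the brain, since lipoprotein cholesterol does not pass the blood-brain barrier, and much of it lies in myelin. When membrane sterol is low, Scap carries the transcription factors SREBP1 and SREBP2 out of the endoplasmic reticulum for cleavage, Insig proteins hold them back when sterol is high, and cleaved SREBP2 activates the genes of most of these enzymes.

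Of the 28 sterol genes, 2 rose in Dp1Tyb and 0 fell at an adjusted p under 0.05 (edgeR quasi-likelihood test, Benjamini-Hochberg adjustment over all tested genes, n = 5 per genotype). Both were synthesis enzymes, Hmgcs1 and Msmo1. By comparison, 0.87% of all tested genes were called higher, or 0.479% outside the duplicated segment, and 0.239% outside it were called lower. At an unadjusted p under 0.05, 8 sterol genes were higher and 0 lower, beside 7.52% and 6.45% of the genes outside the segment. Of the 18 enzymes, 16 had a log2 fold change above 0, with a median of 0.12, whereas the 10 regulator and transport genes had a median of -0.01. Over all genes outside the segment, 48.4% were above 0 and the median was -0.0049. In 5 genes, Hmgcs1, Fdft1, Msmo1, Sc5d and Stard4, every Dp1Tyb mouse was above every WT mouse, which was so for 2.16% of the genes outside the segment. With DESeq2, 4 sterol genes were called higher and 0 lower, where 1.55% of the genes outside the segment were called higher. Both edgeR calls depended on which mice were included: 0 sterol genes were called without Dp1Tyb replicate 2 and 0 without Dp1Tyb replicate 3.

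**Figure D1:**
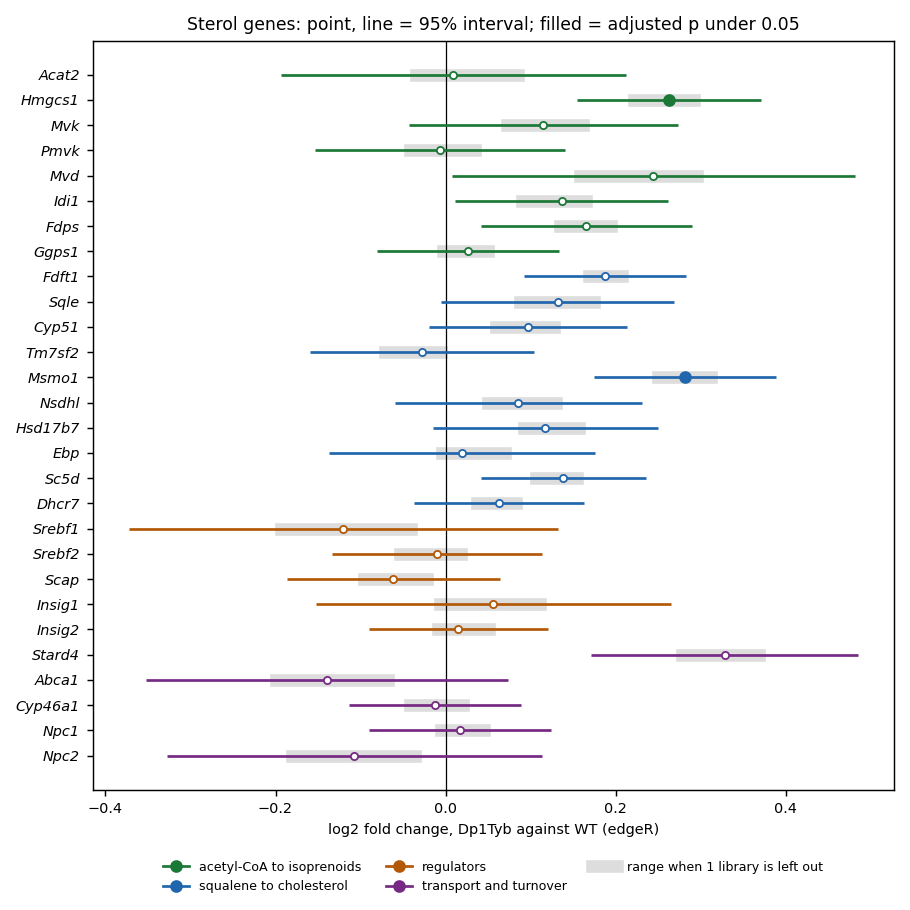
Log2 fold change of each of the 28 sterol genes, Dp1Tyb against WT, with its 95% interval as a line and, as a grey band, the range when 1 library is left out; colours mark the role. Hmgcs1 and Msmo1 are the filled points, Stard4 is the highest point at 0.33, and the intervals of the 5 regulators all include 0.

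Total counts ranged from 18227684 to 43692270 per library, and the sterol genes had between 203 and 13011 counts in a library. RNA of the choroid plexus, a tissue next to the hippocampus, varied between libraries: its 9 markers summed to between 421 and 5374 counts scaled to a common library size (CPM) in WT and between 37.4 and 3842 CPM in Dp1Tyb, lowest in Dp1Tyb replicates 1 and 4 and in WT replicate 2, and 0 of the 9 were called (edgeR; 0 also at an unadjusted p under 0.05, with DESeq2 and with limma-voom). All 9 log2 fold changes were below 0, with a median of -0.96 and a range from -1.20 to -0.75. WT replicate 1 had the lowest value of all 10 mice for 10 of the 18 enzymes.

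Hmgcs1 codes for the cytosolic synthase that makes HMG-CoA, the precursor of mevalonate (ENSMUSG00000093930, GRCm38 chromosome 13, positions 119690379 to 119708260, plus strand). Its expression in WT replicates 1 to 5 was 212, 242, 252, 249 and 244 CPM, and in Dp1Tyb replicates 1 to 5 it was 298, 294, 295, 286 and 264 CPM. The groups did not overlap, although WT replicate 1 was well below the other WT mice and Dp1Tyb replicate 5 came close to the highest of them. The log2 fold change was 0.26 ± 0.050 SE, a fold of 1.20 with a 95% interval of 1.11 to 1.29 (edgeR, adjusted p = 0.0219). Hmgcs1 lost its call without Dp1Tyb replicate 1, 2 or 3, with adjusted p-values of 0.0580, 0.0725 and 0.0716, while the log2 fold change stayed at 0.25, 0.26 and 0.25. Without WT replicate 1 it was 0.22 and still called (adjusted p = 0.0275). Without the 3 libraries that had little choroid plexus RNA it was 0.24 ± 0.064 and not called (adjusted p = 0.167), and without WT replicates 1 and 2 together it was 0.21 ± 0.046 and not called (adjusted p = 0.0566).

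Msmo1 codes for a methylsterol monooxygenase, which starts the removal of the paired methyl groups of the lanosterol ring (ENSMUSG00000031604, GRCm38 chromosome 8, positions 64718139 to 64733792, minus strand). WT replicates 1 to 5 were at 64.95, 69.4, 73.9, 70.7 and 77.1 CPM. Dp1Tyb replicates 1 to 5 were at 84.97, 91.2, 90.3, 82.4 and 83.5 CPM. The groups were again apart, with the lowest Dp1Tyb mouse above the highest WT mouse. The log2 fold change was 0.28 ± 0.050 SE, a fold of 1.22 with a 95% interval of 1.13 to 1.31 (edgeR, adjusted p = 0.0137). The call was lost without Dp1Tyb replicate 2 (adjusted p = 0.0523) or 3 (0.0505), at log2 fold changes of 0.26 and 0.27. Without the 3 libraries poor in choroid plexus RNA the log2 fold change was 0.30, with an adjusted p of 0.0577, and without WT replicates 1 and 2 together it was 0.23, with an adjusted p of 0.0667.

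The promoters of Hmgcs1, of 2 further enzymes and of the cholesterol exporter Abca1 are shown because they contrast in the binding motifs of factors known to act on sterol genes. Each is the stretch of 250 bases before the transcription start in RefSeq (GRCm38.p6), printed 5′ to 3′ in the direction of the gene. The windows are chr13:119690101-119690350 (plus strand), chr8:122443423-122443672 (minus strand), chr9:42264301-42264550 (minus strand) and chr4:53159896-53160145 (minus strand). Capitals mark 3 searched motifs on either strand, namely the sterol regulatory element-like TCACNCCAC, the E-box CACGTG and the NF-Y box CCAAT, which reads ATTGG on the other strand.
Hmgcs1: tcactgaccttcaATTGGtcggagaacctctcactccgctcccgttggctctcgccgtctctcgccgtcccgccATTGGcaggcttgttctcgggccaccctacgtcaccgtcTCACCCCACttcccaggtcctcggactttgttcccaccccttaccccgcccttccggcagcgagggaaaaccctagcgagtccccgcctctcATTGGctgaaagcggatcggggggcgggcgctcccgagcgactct
Mvd: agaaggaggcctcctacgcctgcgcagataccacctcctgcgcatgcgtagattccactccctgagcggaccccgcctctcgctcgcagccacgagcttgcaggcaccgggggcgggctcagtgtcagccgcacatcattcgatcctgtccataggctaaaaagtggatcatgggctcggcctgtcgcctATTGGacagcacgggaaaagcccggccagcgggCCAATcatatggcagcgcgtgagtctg
Sc5d: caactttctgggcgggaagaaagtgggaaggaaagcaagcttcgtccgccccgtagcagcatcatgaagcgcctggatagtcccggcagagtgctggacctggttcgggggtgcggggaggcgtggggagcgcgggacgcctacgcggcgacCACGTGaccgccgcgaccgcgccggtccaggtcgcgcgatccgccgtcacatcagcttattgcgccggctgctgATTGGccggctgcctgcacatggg
Abca1: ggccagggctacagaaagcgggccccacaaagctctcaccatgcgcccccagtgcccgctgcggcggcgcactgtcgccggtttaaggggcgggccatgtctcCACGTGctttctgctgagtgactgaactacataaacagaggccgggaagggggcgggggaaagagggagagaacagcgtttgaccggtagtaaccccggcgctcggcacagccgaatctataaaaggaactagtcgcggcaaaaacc

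RefSeq gave 1 or more such windows for 23 of the 28 genes, 31 windows in all. The other 5 genes, among them Fdft1 and Stard4, had none in the table used. A gene was counted if any of its windows held the motif. The strict sterol regulatory element-like motif occurred in 1 of the 23, Hmgcs1, and in 1.22% of all and 1.19% of the tested genes with a window. The NF-Y box occurred in 20 of 23 sterol genes and in 14 of 15 enzymes, beside 37.5% of all genes and 39.8% of the tested genes. Hmgcs1 held 3 copies, Msmo1 also held 3, Mvd held 2 and Abca1 held 0. The E-box occurred in 6 of 23, beside 6.86% of all and 9.40% of the tested genes. The GC box GGGCGG, searched on both strands and not capitalised, occurred in 21 of 23, beside 35.4% of all and 60.6% of the tested genes. Counted by window, the NF-Y box was in 67.7% of the sterol windows, beside 34.7% of the windows of tested genes. For the E-box these shares were 19.4% and 7.84%, and for the GC box 77.4% and 54.0%. No match of one motif overlapped a match of another in these windows, and a match is a description of the letters only. The 4 windows printed lie wholly before the gene in GENCODE too, whereas the Msmo1 window reaches into the GENCODE gene and is not printed.

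The other enzymes from acetyl-CoA to isoprenoid diphosphates were Acat2, Mvk, Pmvk, Mvd, Idi1, Fdps and Ggps1. Of all 8 enzymes of this stretch 1 was called, 4 had an unadjusted p under 0.05, all higher, and the median log2 fold change was 0.13. Mvd, the decarboxylase that makes isopentenyl diphosphate, was at 12.5, 16.3, 17.5, 17.7 and 18.1 CPM in WT and at 19.99, 21.1, 22.3, 17.2 and 16.4 CPM in Dp1Tyb. Dp1Tyb replicates 1 to 3 were above all WT mice, but replicates 4 and 5 were among them (log2 fold change 0.24 ± 0.11 SE, edgeR adjusted p = 0.336). Without WT replicates 1 and 2 together, Mvd was at 0.13, and without WT replicate 1 alone at 0.16. Idi1, the isomerase of that product, was at 39.95, 43.4, 44.2, 42.05 and 42.9 CPM in WT and 48.6, 45.8, 52.6, 43.6 and 42.8 CPM in Dp1Tyb, groups that overlapped through Dp1Tyb replicates 4 and 5 (log2 fold change 0.14 ± 0.058 SE, adjusted p = 0.305). Fdps, which makes farnesyl diphosphate, was at 32.8, 34.99, 38.9, 35.4 and 37.3 CPM in WT and 39.7, 38.99, 42.9, 36.8 and 42.6 CPM in Dp1Tyb. Its groups overlapped because Dp1Tyb replicate 4 was below WT replicates 3 and 5 (log2 fold change 0.17 ± 0.057 SE, adjusted p = 0.220).

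Mvk and Pmvk, the kinases that phosphorylate mevalonate and its phosphate, had log2 fold changes of 0.11 ± 0.073 and -0.01 ± 0.068 SE. Acat2, the thiolase that joins acetyl-CoA units, averaged 22.0 ± 1.84 CPM over the WT mice and 22.2 ± 3.04 CPM over the Dp1Tyb mice (SD, n = 5). Its neighbour Acat3 is a close copy, and reads that align to both were discarded by the authors, so its level is uncertain. Ggps1 draws farnesyl diphosphate away from sterols to geranylgeranyl diphosphate, for protein prenylation. It was at 31.1, 33.7, 32.4, 30.4 and 33.2 CPM in WT and 30.6, 33.3, 31.95, 35.02 and 32.7 CPM in Dp1Tyb, with wide overlap, and the interval of its fold was 0.946 to 1.10. Ggps1 shares 257 exon bases with Arid4b on the opposite strand, so its count is uncertain.

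**Figure D2:**
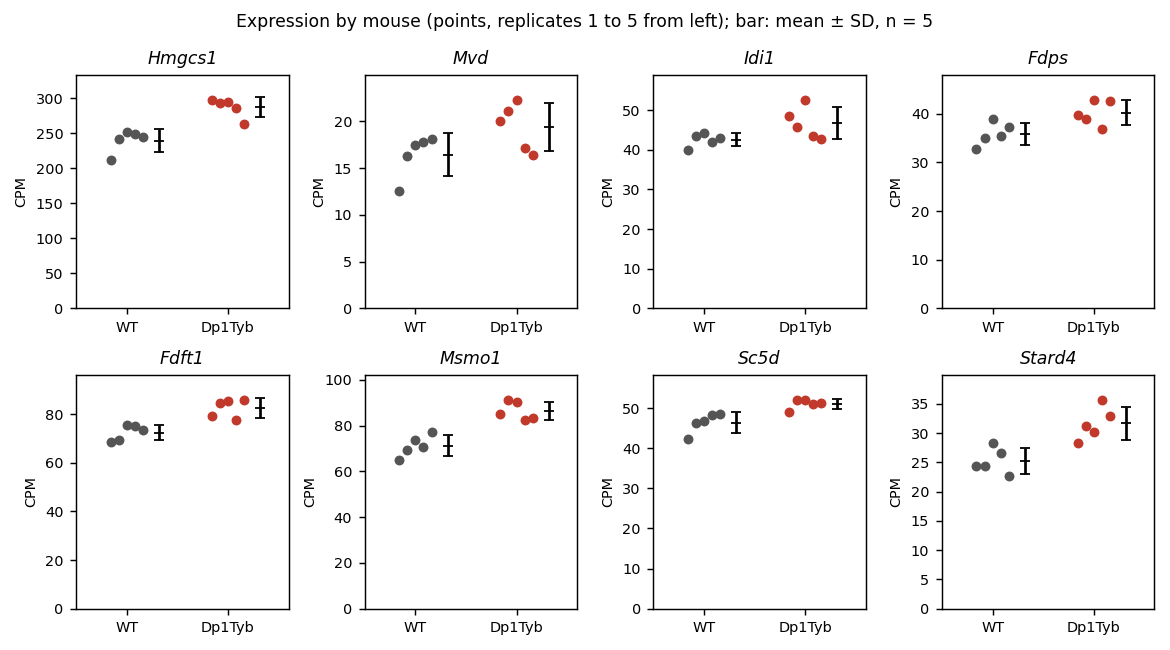
Expression in CPM of the 8 sterol genes with an unadjusted p under 0.05, 1 point per mouse in replicate order, with the mean ± SD (n = 5) beside each group; axes start at 0. In Hmgcs1, Fdft1, Msmo1, Sc5d and Stard4 all Dp1Tyb points lie above all WT points, and in Mvd, Idi1 and Fdps they overlap.

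Among the 10 enzymes from squalene to cholesterol 1 was called, 3 had an unadjusted p under 0.05, all higher, and the median log2 fold change was 0.11. Fdft1, squalene synthase, takes the step that commits farnesyl diphosphate to sterols. It was at 68.7, 69.5, 75.4, 75.3 and 73.3 CPM in WT and at 79.2, 84.8, 85.5, 77.4 and 85.9 CPM in Dp1Tyb. The groups did not overlap, and the log2 fold change of 0.19 ± 0.044 SE missed the threshold in edgeR (adjusted p = 0.0621), passed it in DESeq2 (adjusted p = 0.00914) and passed it in edgeR without Dp1Tyb replicate 4 (adjusted p = 0.0461). Fdft1 shares 774 exon bases with Ctsb on the opposite strand, and the strand setting of the counting was not stated. Ctsb itself differed by 0.02 ± 0.046 SE on the log2 scale (edgeR, adjusted p = 0.907).

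Sc5d, the desaturase that acts late in the pathway, was at 42.3, 46.2, 46.8, 48.3 and 48.4 CPM in WT and at 49.03, 52.04, 52.03, 50.9 and 51.4 CPM in Dp1Tyb. All Dp1Tyb mice were above all WT mice by a narrow margin, with a log2 fold change of 0.14 ± 0.045 SE that did not pass (edgeR, adjusted p = 0.184). Sqle, squalene epoxidase, was at 53.1, 55.5, 67.9, 65.7 and 60.2 CPM in WT and at 64.6, 64.95, 64.8, 66.7 and 69.9 CPM in Dp1Tyb. WT replicates 1, 2 and 5 were below all Dp1Tyb mice, WT replicates 3 and 4 were within the Dp1Tyb range, and the log2 fold change was 0.13 ± 0.063 SE (adjusted p = 0.367), or 0.035 without WT replicates 1 and 2 together.

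Cyp51, which removes a methyl group from lanosterol, had a log2 fold change of 0.10 ± 0.054 SE, which was 0.021 without WT replicates 1 and 2 together and 0.050 without the 3 libraries poor in choroid plexus RNA. Nsdhl and Hsd17b7, which complete the demethylation that Msmo1 starts, had 0.09 ± 0.067 and 0.12 ± 0.061, and neither was called (adjusted p = 0.584 and 0.407). Dhcr7, which makes cholesterol from its dehydro precursor, was at 32.6, 32.7, 32.9, 33.9 and 35.3 CPM in WT and at 37.4, 35.7, 34.6, 33.2 and 33.8 CPM in Dp1Tyb, with overlap (log2 fold change 0.06 ± 0.046 SE, adjusted p = 0.558). Ebp, a sterol isomerase, and Tm7sf2, a sterol reductase, were nearest to 0 in this stretch, at 0.02 ± 0.073 and -0.03 ± 0.061. Tm7sf2 shares 532 exon bases with Vps51 on the same strand, and Cyp51 shares 166 with Akap9 on the opposite strand, so their counts are uncertain.

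Of the regulators, 0 of 5 were called in either direction by edgeR, 0 had an unadjusted p under 0.05, and 0 were called by DESeq2 or limma-voom. Srebf2 codes for SREBP2, the main activator of the synthesis genes. It was at 198, 213, 237, 242 and 237 CPM in WT and at 206, 223, 223, 228 and 239 CPM in Dp1Tyb. The groups overlapped across most of their range, and the fold was 0.993 with a 95% interval of 0.912 to 1.08.

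Srebf1 codes for SREBP1, which acts more on fatty acid genes. It was at 60.3, 58.95, 76.3, 88.8 and 83.3 CPM in WT and at 58.98, 69.3, 67.1, 61.9 and 81.4 CPM in Dp1Tyb. WT replicates 1 and 2 and Dp1Tyb replicates 1 and 4 were low and WT replicates 3 to 5 and Dp1Tyb replicate 5 high, so the spread within each genotype was larger than the difference between them (log2 fold change -0.12 ± 0.12 SE, adjusted p = 0.664). The 3 libraries with least choroid plexus RNA were among these 4 low ones, and the part of that RNA in the values was not tested. Without those 3 libraries the log2 fold change was -0.09 ± 0.11, without WT replicates 1 and 2 together it was -0.29 ± 0.092 (adjusted p = 0.145), and with 1 library left out it lay between -0.19 (without Dp1Tyb replicate 5 or WT replicate 2) and -0.04 (without WT replicate 4). Srebf1 shares 109 exon bases with Rai1 on the opposite strand, so its count is uncertain. Rai1 itself differed by -0.13 ± 0.068 SE on the log2 scale (edgeR, adjusted p = 0.399).

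Scap, the escort of the SREBPs, had a log2 fold change of -0.06 ± 0.058 SE. Insig1, a retention protein whose own gene is a known SREBP target, was at 51.1, 61.5, 71.5, 60.5 and 65.3 CPM in WT and at 55.7, 73.9, 73.3, 57.8 and 61.2 CPM in Dp1Tyb. Dp1Tyb replicates 2 and 3 were the highest of all mice and Dp1Tyb replicates 1 and 4 were below most WT mice (log2 fold change 0.06 ± 0.096 SE, adjusted p = 0.822). Without the 3 libraries poor in choroid plexus RNA it was 0.16 ± 0.099, and without WT replicates 1 and 2 together -0.03 ± 0.099. Insig2, its relative, had 0.01 ± 0.049. Scap shares 985 exon bases with an antisense gene of few reads, 5830462I19Rik.

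Among the transport and turnover genes 0 of 5 were called by edgeR or limma-voom and 1 by DESeq2, and 1 had an unadjusted p under 0.05. This was Stard4, a soluble carrier that moves cholesterol between membranes and a known SREBP2 target (ENSMUSG00000024378). Stard4 was at 24.4, 24.3, 28.2, 26.6 and 22.7 CPM in WT and at 28.4, 31.3, 30.2, 35.7 and 32.99 CPM in Dp1Tyb. The groups did not overlap, with Dp1Tyb replicate 1 just above WT replicate 3. Its log2 fold change of 0.33 ± 0.073 SE was the highest of the 28, and it missed the threshold in edgeR by little (adjusted p = 0.0505). It passed in 8 of the 20 alternative analyses, with adjusted p-values between 0.00286 and 0.158 over all 20.

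Abca1, which exports cholesterol to lipoproteins and is induced by liver X receptors, was at 50.3, 55.3, 67.2, 61.8 and 58.3 CPM in WT and at 42.8, 53.9, 48.3, 61.3 and 59.7 CPM in Dp1Tyb. Dp1Tyb replicates 1 and 3 were the lowest of all mice, and the others overlapped with WT (log2 fold change -0.14 ± 0.099 SE, adjusted p = 0.540). Abca1 was at -0.07 without Dp1Tyb replicate 1, at -0.09 without WT replicate 3 and at -0.23 without WT replicates 1 and 2 together, and was not called in any of these. Cyp46a1, the neuronal hydroxylase that clears cholesterol from the brain, was at 143, 140.0, 145, 161 and 148 CPM in WT and at 157, 148, 143, 136 and 146 CPM in Dp1Tyb. The groups overlapped almost fully, and the interval of the fold was 0.924 to 1.06. Npc1 and Npc2, which release cholesterol from lysosomes, had log2 fold changes of 0.02 ± 0.049 and -0.11 ± 0.10 SE. Npc2 was at -0.03 without the 3 libraries poor in choroid plexus RNA and at -0.21 without WT replicates 1 and 2 together. Npc1 shares 511 exon bases with Rmc1 on the opposite strand.

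**Figure D3:**
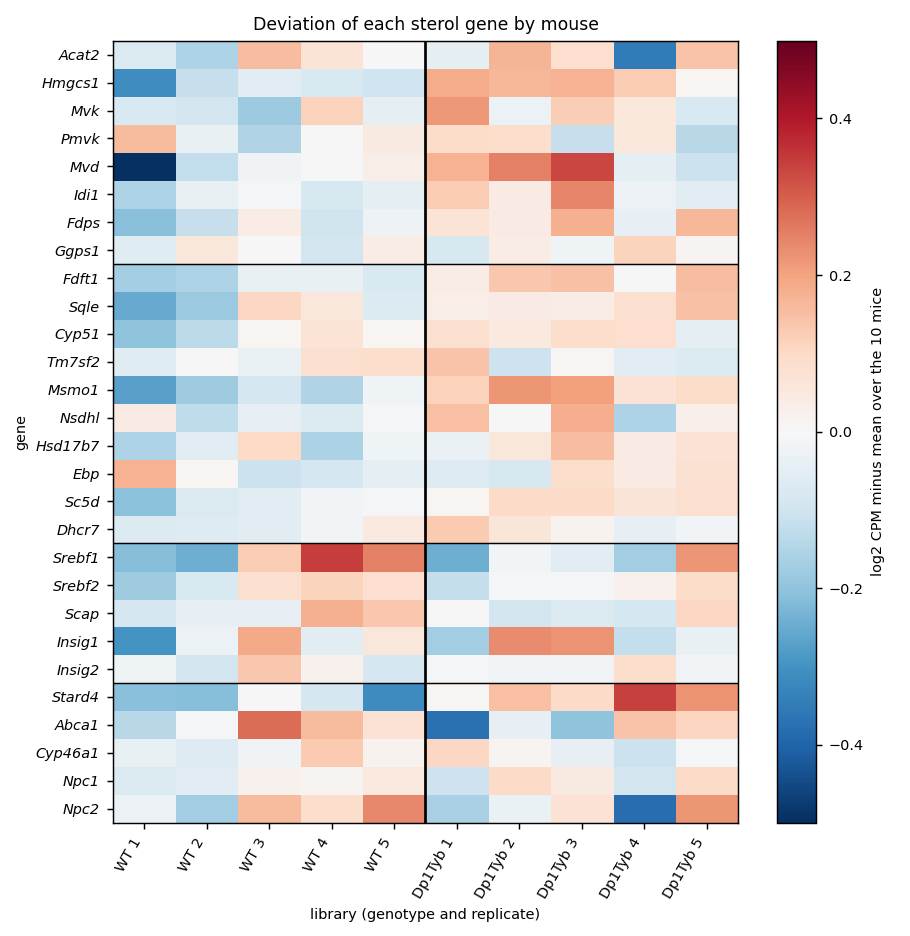
Deviation of log2 CPM from the mean over the 10 mice for each sterol gene (rows, in order of role) in each library (columns, WT left of the line); red is above and blue below the mean. The enzyme rows are mostly blue in WT replicate 1 and mostly red in Dp1Tyb replicate 3, whereas rows of regulators mix both colours within each genotype.

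By mouse, the median deviation of the 18 enzymes from their means over all mice was -0.15, -0.10, -0.03, -0.02 and -0.02 in WT replicates 1 to 5. In Dp1Tyb replicates 1 to 5 it was 0.08, 0.05, 0.11, 0.04 and 0.02. All Dp1Tyb medians were above all WT medians, but the gap between WT replicate 5 and Dp1Tyb replicate 5 was small beside the range within each genotype. The median log2 fold change of the 18 enzymes was 0.089 without WT replicates 1 and 2 together and 0.097 without the 3 libraries poor in choroid plexus RNA, beside 0.12 with all mice, and in each case 16 enzymes were above 0 and 0 sterol genes were called. Without WT replicates 1 and 2 these were not the 16 of the full data, since Acat2 went from 0.0087 to -0.065 and Pmvk from -0.0065 to 0.033. The 5 regulators had medians from -0.18 to 0.13 in WT and from -0.12 to 0.09 in Dp1Tyb, and the transport genes from -0.07 to 0.09 and from -0.11 to 0.11.

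Markers of the main cell types were set beside these values. The 12 oligodendrocyte markers, cells that make much of the cholesterol of the brain, summed to between 4536 and 5790 CPM in WT and between 4500 and 6142 CPM in Dp1Tyb, with 0 of 12 called (edgeR; 2 at an unadjusted p under 0.05, both higher, and 0 by DESeq2 or limma-voom). Of 9 astrocyte markers 1 was called, Gfap, which rose by 0.26 ± 0.047 SE on the log2 scale (adjusted p = 0.0167), and 3 were higher and 1 lower at an unadjusted p under 0.05, 2 were called higher by DESeq2 and 1 by limma-voom. Their median log2 fold change was 0.02, with 4 of 9 below 0 and Gjb6 lowest at -0.18 ± 0.095, and their sum was 4621 to 5517 CPM in WT and 4890 to 5335 CPM in Dp1Tyb. Of 8 neuron markers 1 was called, Gad2, an enzyme of GABA synthesis, which rose by 0.34 ± 0.074 (adjusted p = 0.0410). Rbfox3 was lowest at -0.045 ± 0.036, and 2 of the 8 were below 0. Of the neuron markers 4 were higher and 0 lower at an unadjusted p under 0.05, 2 were called higher by DESeq2 and 1 by limma-voom, their median log2 fold change was 0.11, beside 0.12 for the enzymes, and the sums were 9282 to 10390 and 9926 to 10350 CPM. The median deviation of the neuron markers, like that of the enzymes, was higher in every Dp1Tyb mouse (0.02 to 0.09) than in any WT mouse (-0.13 to -0.01). That of the 4 endothelium markers was lower in every Dp1Tyb mouse (-0.11 to -0.02) than in any WT mouse (-0.0047 to 0.11), with 0 of 4 called and 3 lower at an unadjusted p under 0.05, and 0 called by DESeq2 or limma-voom. The part of these cell types in the enzyme values was not tested. No marker of the lists was at 0 in any library, and the 6 hippocampal markers summed to between 948 and 1112 CPM in all mice. Of hippocampal, microglia and blood markers 0 of 6, 0 of 5 and 0 of 5 were called by edgeR, DESeq2 or limma-voom, and at an unadjusted p under 0.05 there were 1 higher and 2 lower, 1 lower, and 1 lower. All 5 blood markers were below 0, with a median of -0.43.

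**Figure D4:**
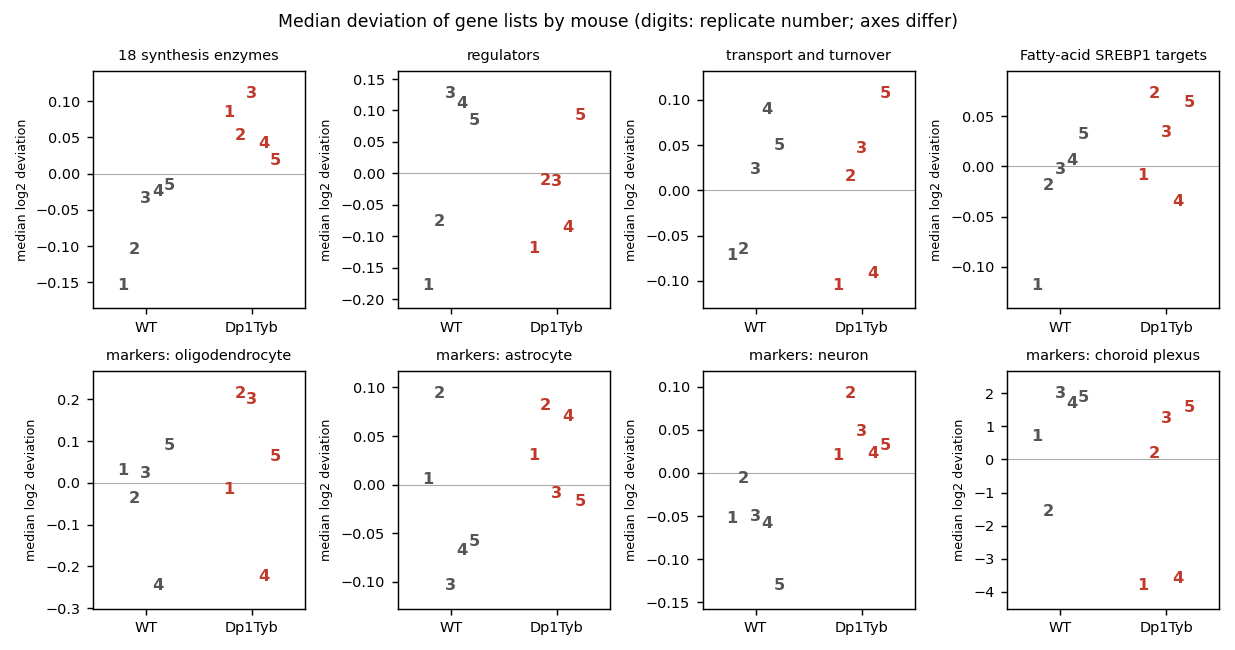
Median log2 deviation of each gene list from its mean over the 10 mice, by genotype, with the replicate number as the symbol; the vertical axes differ between panels. The enzyme and neuron panels show no overlap between genotypes, and the choroid plexus panel has Dp1Tyb replicates 1 and 4 and WT replicate 2 far below the rest.

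Genes around the 28 were counted in the same way. Of 29 other genes of sterol synthesis, uptake, esterification and efflux, 28 were tested, and 0 were called by edgeR in either direction. At an unadjusted p under 0.05, 2 were higher and 1 lower, and 1 was called higher by DESeq2 and 0 by limma-voom. The median log2 fold change of these tested genes was -0.0012. They ranged from -0.16 for Nr1h2, a liver X receptor, to 0.26 for Cyp27a1, a sterol hydroxylase. Neither passed in edgeR (adjusted p = 0.330 and 0.392) or in DESeq2 (adjusted p = 0.271 and 0.418), so the gene called by DESeq2 was another of the list. Of 14 fatty acid genes that SREBP1 is known to activate, 12 were above 0 with a median of 0.04, and 0 were called (3 higher and 0 lower at an unadjusted p under 0.05, 0 by DESeq2 or limma-voom). Scd1, a desaturase, was at the top with 0.15 ± 0.059 SE and Lpin1 at the bottom with -0.05 ± 0.049. Of 12 genes that use isoprenoids for prenylation, dolichol and ubiquinone, 0 were called (2 higher and 0 lower at an unadjusted p under 0.05, 0 by DESeq2 or limma-voom), with a median of -0.0040 and a range from -0.06 for Fntb to 0.13 for Nus1.

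Per exon length, the 28 genes spanned a wide range of levels. Hmgcs1 was highest, at 52.2 ± 3.52 FPKM (CPM per kilobase of exon) in WT and 62.6 ± 3.02 in Dp1Tyb (SD, n = 5), followed over all mice by Cyp46a1 at 44.6 ± 2.29 and Srebf2 at 31.3 ± 2.08 (SD, n = 10). Insig1 and Fdft1 came next, at 20.4 ± 2.50 and 18.3 ± 1.49, and differed from each other by less than the larger of their SDs. From Cyp51 to Scap, 6 genes lay between 11.4 and 13.1 FPKM, where each differed from its neighbour in the order by less than the larger of their SDs. Tm7sf2 and Hsd17b7 were lowest, at 4.56 ± 0.255 and 4.39 ± 0.314. Msmo1 was at 12.8 ± 1.47 and Stard4 at 5.10 ± 0.740.

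**Figure D5:**
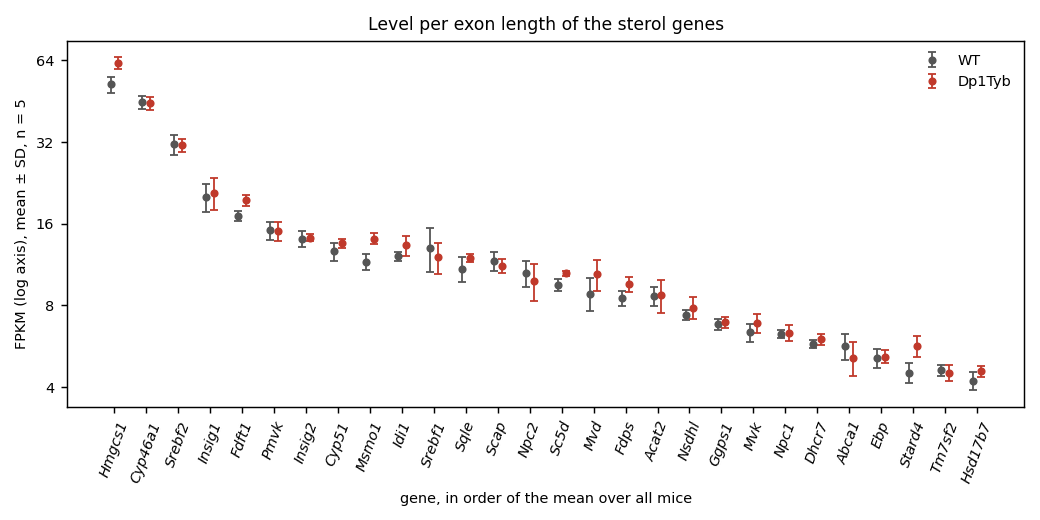
Level of each sterol gene in FPKM on a log axis, mean ± SD (n = 5) for WT and Dp1Tyb, in order of the mean over all mice. Levels run from 57.4 for Hmgcs1 to 4.39 for Hsd17b7, and for most genes the bars of the genotypes overlap.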

How the data were processed

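The labels and methods describe stranded poly(A) libraries, read as paired ends. Per the study's methods and processing notes, the authors trimmed reads with Trim Galore, aligned them to GRCm38 with TopHat2 2.0.12, discarded reads with several alignments and counted them with HTSeq. The deposited counts are whole reads per gene, not normalized. The strand setting and annotation release were not given in the sources used here. The deposited normalized values and the authors' own DESeq2 1.6.3 comparison (fold changes and p-values) were not used.

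All 10 libraries were fitted with edgeR 4.0.16 in R 4.3.3 (quasi-likelihood F-test, TMM, filterByExpr, no covariates, Benjamini-Hochberg over 17237 genes, called under 0.05). The same test was also run on counts simulated from the means and spread of these data. CPM used TMM factors, and FPKM used the union exon length of GENCODE M21. Alternatives were DESeq2 1.42.0, limma-voom 3.58.1, other scalings and filters, a replicate block and leaving out each library; leaving out WT replicates 1 and 2, or the libraries with little choroid plexus RNA, was added after seeing the data. Groups came from the genotype labels, which give no batch. Over 45 library pairs, chi-square divided by its degrees of freedom was at least 4.97, so no pair agreed within sampling noise. Total counts were 18227684 to 43692270 per library, and p-values set the difference between genotypes against the spread between mice. Promoters came from RefSeq (GRCm38.p6). The 28 members and all lists were chosen with earlier results of these data known. Every member is named. Members with an unadjusted p under 0.05, and some others of each role, are given by library. Of the other sterol-pathway, fatty acid and isoprenoid genes the extremes are named. Of the astrocyte and neuron markers the called genes and the extremes are named, and of the other marker lists no gene is named.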

Additional observations from a re-analysis of the deposited data

Results flagged for a closer look

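In 3 of the 56 groups of 5 mice (28 genes in 2 genotypes), the highest or lowest mouse lay farther from its nearest neighbour, as a share of the group's range, than Dixon's 95% critical value of 0.71 for 5 samples allows. Chance gives about 1 in 20, or 2.8 of 56. Hmgcs1 in WT replicate 1 was at 211.6 CPM, below the other WT mice at 242 to 252 CPM. Cyp51 in Dp1Tyb replicate 5 was at 55.8 CPM, below the others at 59.8 to 61.3 CPM. Insig2 in Dp1Tyb replicate 4 was at 52.1 CPM, above the others at 48.6 to 48.8 CPM.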

How the results depend on the processing

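The median log2 fold change of the 28 sterol genes was between 0.034 and 0.086 in all 20 alternatives. No alternative turned the direction of Hmgcs1, Msmo1, Fdft1, Sc5d or Stard4. Since the groups of these genes did not overlap, leaving out libraries could hardly have done so. Sterol genes with overlapping groups, such as Mvd, Sqle and Srebf1, also kept their direction. The number of sterol genes called moved from 2 to 4 with DESeq2, to 0 without WT replicates 1 and 2 together, to 0 without the libraries with little choroid plexus RNA, and to between 0 and 3 when 1 library was left out. The other sterol-pathway genes called moved from 0 to 1 with DESeq2 and to 1 with the replicate block. All genes called moved from 191 to 507 with DESeq2, to 315 with the replicate block, to 108 without the libraries with little choroid plexus RNA, and to between 105 and 218 when 1 library was left out. The causes of these moves were not tested. Fits with libraries left out also had fewer samples, and this was not separated from which mice were removed. Same-numbered libraries correlated between -0.069 and 0.28 in their deviations, and 1 of 5 correlated best with its own number, so the labels' numbers were not taken to pair the mice; with the replicate block 3 sterol genes were called.

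Small differences changed sign. Without WT replicates 1 and 2 together, the log2 fold change was -0.065 for Acat2, 0.033 for Pmvk, -0.031 for Insig1, -0.018 for Insig2 and -0.020 for Npc1. It was -0.0081 for Acat2 with limma-voom and -0.034 for Insig2 without the libraries with little choroid plexus RNA. When 1 library was left out the ranges were -0.034 to 0.085 for Acat2, -0.042 to 0.034 for Pmvk, -0.0026 to 0.050 for Ggps1, -0.0039 to 0.070 for Ebp, -0.053 to 0.018 for Srebf2, -0.0071 to 0.11 for Insig1, -0.0095 to 0.050 for Insig2, -0.042 to 0.021 for Cyp46a1 and -0.0052 to 0.045 for Npc1. None of these was called.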
